A study of Mus musculus with 16 samples.

Results

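The oxidative phosphorylation genes of a mouse macrophage line were followed in 16 RNA sequencing libraries, keeping apart the genes in the nucleus and those on mitochondrial DNA. Members were chosen by name: nuclear symbols that begin with Nduf, Uqcr, Cox4 to Cox8 or Atp5, and the 13 protein genes of mitochondrial DNA. Of 109 candidates, 3 nuclear symbols were left out as pseudogenes, and 14 nuclear and 3 mitochondrial genes fell under the minimum mean of 5 CPM (counts per 1000000). That left 89 members, 79 nuclear and 10 mitochondrial, of 12589 genes tested and 27179 in the table. All 89 passed the filter on low counts in the test. At the edge of the minimum, Cox7a1 (4.74 CPM) and Ndufs6b (4.15 CPM) were just outside and Ndufa6 (6.58 CPM) just inside.

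All groups were iBMDM MyD88-AGF, an immortalised macrophage line derived from mouse bone marrow, with the genotype given as MyD88-AGF WT. Untreated cells got no lipopolysaccharide (LPS), the glycolipid of bacterial outer membranes that macrophages sense through TLR4. The other 3 groups had LPS at 10 ng/mL for 6 h: responders (sorted for high side scatter, a measure of internal granularity), bystanders (low side scatter) and an ungated culture, here the LPS pool. Each group had 4 libraries of 1000000 collected cells. The gated cells were collected before the ungated ones, and the time of collection differs wherever gated and ungated cells are compared. The labels do not say whether the line is 1 clone, nor that replicates were separate cultures; p-values then rest only on how far these samples spread, and that spread may be technical.

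The respiratory chain passes electrons from NADH and succinate to oxygen and pumps protons across the inner mitochondrial membrane; ATP synthase uses the returning protons to make ATP. Complexes I, III and IV and ATP synthase are built from subunits of both genomes, complex II from nuclear genes alone. Mitochondrial DNA is transcribed from both strands into long precursors that are cut into single mRNAs, so its genes can differ in level by processing and decay. Macrophages given LPS are known to shift energy production toward glycolysis.

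Total counts ran from 15287344 to 25193162 per library. All 7 macrophage markers were present, at 3163 to 3850 CPM in sum. Levels are CPM on TMM-scaled totals, where TMM is edgeR's trimmed mean of log ratios between libraries. This choice decides the sign of small changes: with library totals alone, the median log2 change of all genes tested moved from -0.01 to -0.20 for responders against bystanders and from -0.03 to -0.36 for the LPS pool against untreated cells. On those totals 20.5% of all genes were called higher and 53.2% lower in the first comparison, and 17.6% and 63.8% in the second, so counts on library totals stand against these shares. Values relative to the median of all genes, and ratios of reads within a library, do not depend on it. The neural transcript Stmn2 was at 1 CPM or more in 6 libraries (untreated 1, LPS pool 3 and 4, bystander 3 and 4, responder 1). There the 12 neural and glial markers other than Mbp and Map2 summed to 7.64 to 13 CPM, against 2.18 to 3.55 CPM in the 10 others. Counts without the libraries holding Stmn2 are given for the nuclear and the mitochondrial members and for some of the classes. With Mbp and Map2 the neural sum was 90.5 to 108 CPM in untreated cells and 45 to 64.6 CPM in the LPS-treated groups, and the 5 fibroblast markers summed to 6.97 to 30.6 CPM in untreated cells, 3.13 to 105 in the LPS pool, 1.94 to 76.6 in bystanders and 8.69 to 30.1 in responders; the part of either in the results was not tested. The neutrophil markers summed to 0.18 to 0.25 CPM in untreated cells, 0.924 to 1.36 in the LPS pool, 0.114 to 0.349 in bystanders and 0.856 to 1.4 in responders, and the 1 tested was called higher in the LPS pool (log2 2.92) and in responders against bystanders (2.61). The muscle markers summed to 1.85 to 2.52 CPM in untreated cells, 1.13 to 5.46 in the LPS pool, 2.23 to 6.28 in bystanders and 0.945 to 1.76 in responders, with the 1 tested called lower in responders against bystanders (log2 -1.29). Their part in the results was not tested either. Lymphocyte markers summed to at most 0.615 CPM. In bulk RNA, fewer cells of a type and less RNA per cell cannot be told apart.

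Reads of the mitochondrially encoded genes were fewer, relative to reads of the nuclear members, in the LPS pool than in untreated cells and in responders than in bystanders. The ratio of summed reads, 10 mitochondrial to 79 nuclear genes, was 1.81, 1.8, 1.78 and 1.8 in the untreated libraries and 1.46, 1.47, 1.51 and 1.45 in the LPS pool. It was 1.84, 1.88, 1.82 and 1.8 in bystanders and 1.51, 1.53, 1.59 and 1.56 in responders. Bystanders and untreated cells shared 1 range, near 1.8, and the other 2 groups lay lower without touching it. The ratio was 18.2% lower in the LPS pool than in untreated cells (1.47 ± 0.0253 against 1.8 ± 0.012, SD, n = 4 each) and 15.8% lower in responders than in bystanders (1.55 ± 0.0321 against 1.84 ± 0.0353), each with p = 0.0286 and adjusted p = 0.0381 over 4 comparisons in a two-sided exact permutation test. That p is the smallest that 4 against 4 libraries allow. Responders were 13.9% below untreated cells with the same p. Bystanders were 2.23% above untreated cells, with overlapping libraries (exact permutation p = 0.0571).

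**Figure D1:**
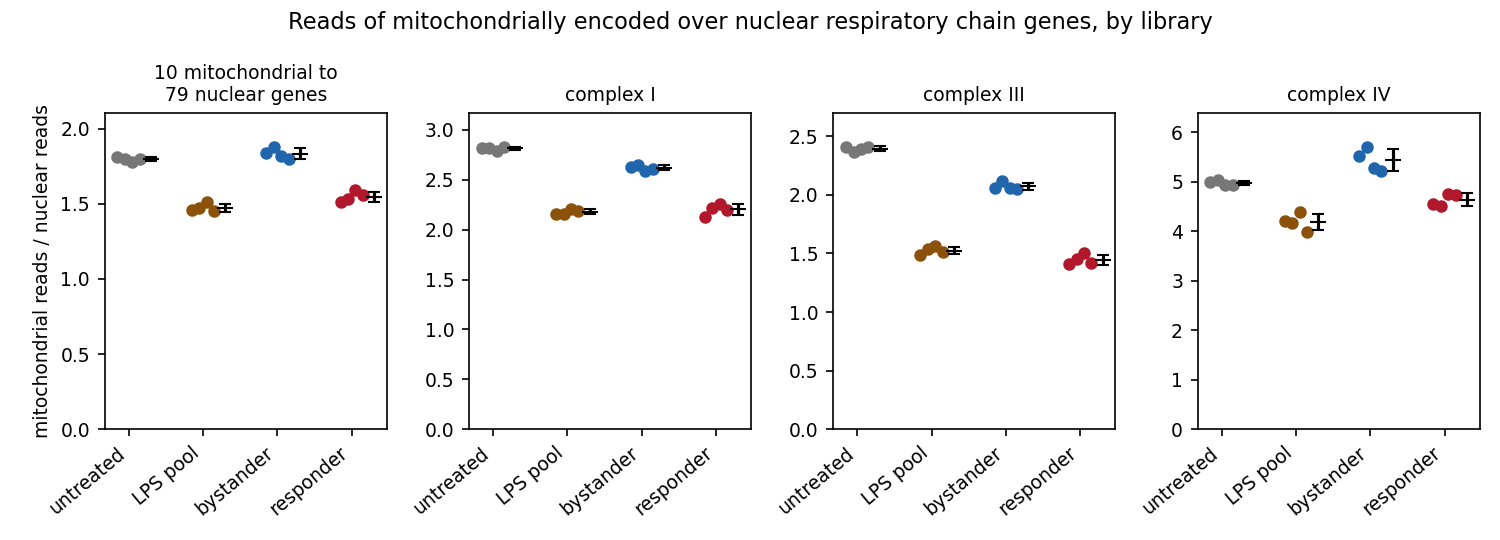
Each point is 1 library: reads of mitochondrially encoded members over reads of nuclear members, for all members and for complexes I, III and IV (linear axes from 0; black bars are mean ± SD, n = 4). In all 4 panels the LPS pool lay below the untreated libraries and responders below bystanders, with no overlap.

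A single gene carried much of the sum. mt-Co1, the catalytic subunit 1 of cytochrome c oxidase, gave 51.9% of all reads of the 10 mitochondrial members. Without it the ratio fell more, by 26.1% in the LPS pool against untreated cells (0.697 ± 0.00993 against 0.943 ± 0.00749) and by 21.3% in responders against bystanders (0.685 ± 0.0134 against 0.871 ± 0.0123). The small gain in bystanders was then a change of -7.63% against untreated cells, without overlap. Taken alone, mt-Co1 reads over nuclear member reads were 13.1% higher in bystanders than in untreated cells, and in responders (0.861 ± 0.0211) they overlapped the untreated libraries (0.853 ± 0.00504).

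The shift was present in complexes I, III and IV taken apart. For complex III, whose 1 mitochondrial gene is mt-Cytb, the ratio to its 7 nuclear members was 2.4 ± 0.0198 in untreated cells, 1.53 ± 0.0327 in the LPS pool, 2.07 ± 0.0335 in bystanders and 1.44 ± 0.0396 in responders. The LPS pool was 36.4% below untreated cells and responders 30.4% below bystanders. For complex I, with 5 mitochondrial and 36 nuclear members, the same 2 comparisons gave 22.7% and 15.9%. For complex IV, 3 and 11 members, they gave 15.9% and 14.6%. Each of these 6 differences had no overlap between libraries (exact permutation p = 0.0286, adjusted p = 0.0327 over 16 tests). In complex IV nearly all mitochondrial reads were of mt-Co1 (8685 CPM on average, against 50.1 for mt-Co2 and 43 for mt-Co3). With TMM scaling mt-Co1 itself was not called lower in the LPS pool, where 10 of the 11 nuclear members were called higher. Bystanders against untreated cells differed by complex, each without overlap: -6.95% for complex I, -13.5% for complex III and 9.14% for complex IV. For complex V, mt-Atp6 gave only 381 to 1263 reads per library, and its ratio was 30.4% lower in responders than in bystanders without overlap, but overlapped between the LPS pool and untreated cells (adjusted p = 0.061 in the exact permutation test).

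Among the single mitochondrial genes, changes were tested with edgeR's quasi-likelihood test, adjusted over all 12589 genes. With TMM scaling, 1 of the 10 was higher and 5 were lower in responders against bystanders, where 34.7% of all genes tested were higher and 35.3% lower. In the LPS pool against untreated cells 1 was higher and 6 were lower, beside 34.1% and 37.8% of all genes; leaving out single libraries moved that 1 to as many as 3, and DESeq2 gave 3. Their median log2 change was -0.30 and -0.12, which is -0.29 and -0.09 relative to the median of all genes under TMM, median-ratio or total scaling alike. Unscaled library totals gave 0 higher and 8 lower in each. Without the 6 libraries holding Stmn2, the counts were 1 higher and 6 lower for the sorted groups and 3 higher and 6 lower for the LPS pool, and the median for responders against bystanders was -0.11 in place of -0.30.

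mt-Cytb, the cytochrome b of complex III (chromosome MT, 14145 to 15288), stood at 2005, 1990, 2008 and 2036 CPM in the untreated libraries and at 1434, 1453, 1468 and 1498 in the LPS pool. Bystanders had 1871, 1901, 1822 and 1833 CPM and responders 1313, 1369, 1398 and 1333. No LPS pool or responder library reached the bystander range, which itself lay under the untreated one. The log2 change was -0.46 in the LPS pool against untreated (SE 0.0189, edgeR adjusted p = 5.21e-31) and -0.46 in responders against bystanders (SE 0.0189, adjusted p = 8.71e-31). For bystanders against untreated cells edgeR gave -0.11 (adjusted p = 2.37e-07).

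mt-Nd2 and mt-Nd1 encode membrane subunits of complex I and went the same way. mt-Nd2 stood at 1144, 1150, 1140 and 1151 CPM in untreated cells, 853, 831, 819 and 867 in the LPS pool, 1158, 1180, 1097 and 1129 in bystanders and 804, 824, 823 and 812 in responders. Untreated and bystander libraries overlapped with TMM scaling, though not on library totals, and both lay above the other 2 groups. The log2 change was -0.48 in responders against bystanders (adjusted p = 5.98e-31 in edgeR's test) and -0.44 in the LPS pool against untreated (3.66e-29), while bystanders against untreated gave -0.01 (adjusted p = 0.751). mt-Nd1 averaged 2648 ± 26.7, 2209 ± 61.4, 2761 ± 60.3 and 2110 ± 62.2 CPM in untreated, LPS pool, bystander and responder libraries, a log2 change of -0.39 for responders against bystanders and -0.26 for the LPS pool. Smaller falls were called for mt-Nd5, at -0.11 and -0.19.

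mt-Co1 did not follow these 3 genes. It stood at 7997, 8028, 7960 and 8010 CPM in untreated cells and 8231, 8166, 8239 and 8130 in the LPS pool, and at 9712, 9922, 9420 and 9422 in bystanders and 8705, 8851, 9176 and 8988 in responders. With TMM scaling both sorted groups lay above both ungated groups, but on library totals responders (7845 to 8213 CPM) lay below untreated cells (9306 to 9379). Responders were below bystanders, with a log2 change of -0.11 (adjusted p = 1.03e-07 in edgeR's test), the LPS pool against untreated did not pass the test (0.03, adjusted p = 0.0643, and -0.29 with library totals alone), and bystanders were above untreated cells by 0.27. mt-Nd4 was at 817 CPM in bystanders and 820 in responders, a log2 difference of 0.00 (adjusted p = 0.869; -0.19 with library totals alone).

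mt-Nd6, a complex I subunit and the protein gene that lies on the opposite strand of mitochondrial DNA from the other 12, was the 1 mitochondrial member called higher in either comparison. Its levels were 406, 409, 411 and 423 CPM in untreated cells, 459, 459, 465 and 497 in the LPS pool, 396, 397, 388 and 386 in bystanders and 409, 478, 454 and 435 in responders. With TMM scaling every LPS pool library exceeded every untreated one and every responder library every bystander one. The log2 change was 0.19 for the LPS pool (adjusted p = 0.000552, edgeR) and 0.18 for responders against bystanders (0.000791), but with library totals alone these were -0.14 and -0.01. Its ratio to mt-Cytb within a library does not depend on scaling. That ratio, chosen after the values were seen, was 0.205 ± 0.00222 in untreated cells, 0.321 ± 0.0074 in the LPS pool, 0.211 ± 0.00175 in bystanders and 0.328 ± 0.0158 in responders. The lowest LPS-pool and responder libraries (0.316 and 0.311) were above the highest untreated and bystander ones (0.208 and 0.213). Whether the counts used strand is not given in the sources used here, so reads of mt-Nd6 and of transcripts antisense to it cannot be told apart.

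**Figure D2:**
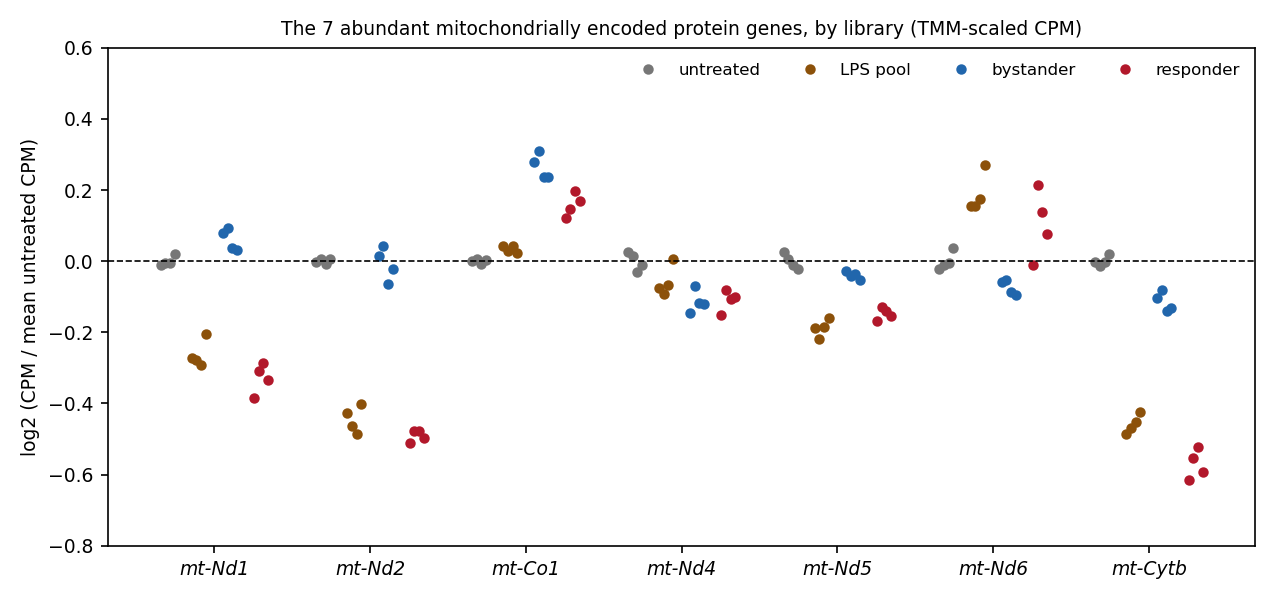
Points are single libraries: the level of each of the 7 mitochondrially encoded genes above 400 CPM on average, as log2 of TMM-scaled CPM over the mean of the untreated libraries. mt-Nd1, mt-Nd2 and mt-Cytb were lowest in the LPS pool and responders, mt-Co1 was highest in bystanders, and the LPS pool's higher mt-Nd6 (log2 0.19) became -0.14 with library totals alone.

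The other mitochondrial protein genes had levels far below these, and all of them but mt-Atp8 had near-identical annotated copies in the nuclear genome. Per kilobase of transcript, mt-Co1 was at 5621 CPM and mt-Nd1 at 2541, whereas mt-Co2 was at 73.3, mt-Co3 at 54.8, mt-Atp6 at 50.6, mt-Atp8 at 15.9, mt-Nd3 at 11.1 and mt-Nd4l at 10.4. mt-Nd3, mt-Atp8 and mt-Nd4l, at 3.86, 3.25 and 3.1 CPM, are the 3 under the minimum. In the GRCm38 annotation (GENCODE M21), 1 block of unprocessed pseudogenes at chr1:24611535-24616197 holds copies of 6 of the 13 genes over part or all of their length, and the last part of mt-Co1. The 5 genes copied there over 99% to 99.9% of their transcripts ranged from 10.4 to 73.3 CPM per kilobase. No copy of at least 99% identity was found in the annotated transcripts for mt-Cytb, mt-Nd1, mt-Nd2, mt-Nd5, mt-Nd6 and mt-Atp8. The first 5 ranged from 828 to 2541, while mt-Atp8 was at 15.9. mt-Atp8 has no annotated copy of its own, yet the gap between the copies of its neighbours in the block, 234 bases, equals that on mitochondrial DNA. How reads that fit more than 1 place were counted is not given in the sources used here. The levels of mt-Co2, mt-Co3, mt-Atp6, mt-Nd4 and mt-Co1 are therefore uncertain, and the part of the copies in them was not tested. For mt-Co1, copies of at least 99% identity cover 31.3% of the transcript, and copies of at least 95% identity cover 100%.

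The degree of likeness is shown by 60-base stretches of 3 mitochondrial genes and of their copies, read 5′ to 3′ on the strand of the gene, with capitals at the bases that differ. mt-Nd3 (chrMT:9459-9518, plus strand) and its copy Gm28438 (chr1:24613060-24613119, minus strand) differ once in 345 aligned bases, here:
mt-Nd3: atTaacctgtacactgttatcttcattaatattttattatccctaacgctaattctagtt
Gm28438: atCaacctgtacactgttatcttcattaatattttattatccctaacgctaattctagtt
mt-Co2 (chrMT:7013-7072, plus strand) and Gm28661 (chr1:24615506-24615565, minus strand) have 0 mismatches over 681 bases:
mt-Co2: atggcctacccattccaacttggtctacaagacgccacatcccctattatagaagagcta
Gm28661: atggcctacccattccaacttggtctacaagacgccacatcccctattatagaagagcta
mt-Co1 (chrMT:5351-5410, plus strand), the most abundant of the 13, has a full-length copy that differs more, Gm13340 (chr2:22589565-22589624, minus strand), with 37 mismatches in 1545 bases:
mt-Co1: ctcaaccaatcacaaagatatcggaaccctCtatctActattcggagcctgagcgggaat
Gm13340: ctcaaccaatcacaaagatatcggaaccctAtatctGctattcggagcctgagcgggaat

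**Figure D3:**
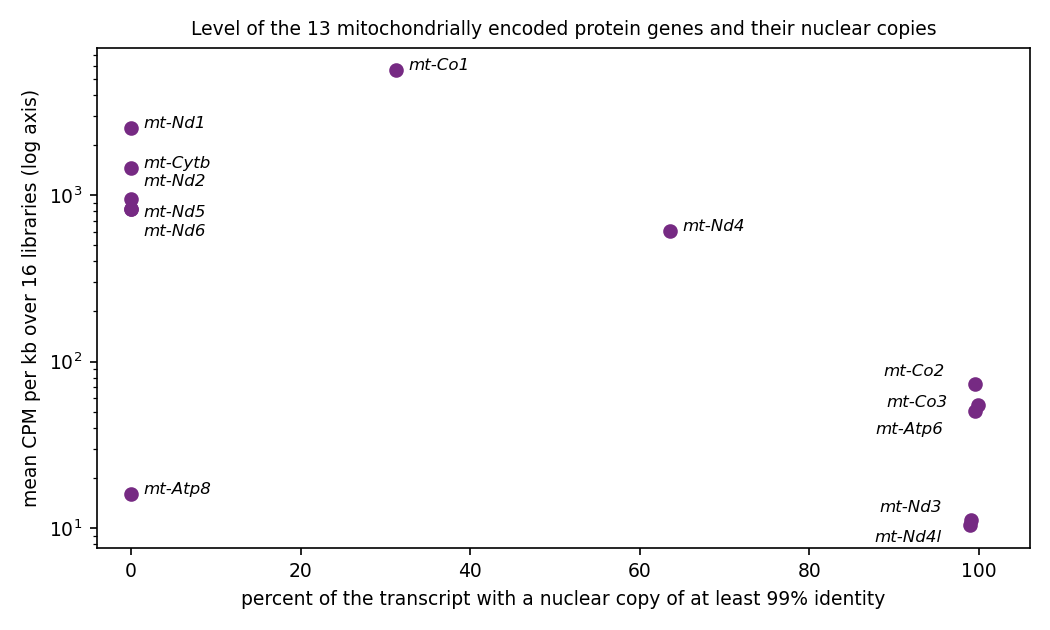
Each point is 1 of the 13 mitochondrially encoded protein genes: the percent of its transcript with a nuclear copy of at least 99% identity, and its mean CPM per kilobase over 16 libraries on a log axis. The 5 genes copied almost whole lie at 10.4 to 73.3, and mt-Atp8, without an annotated copy, at 15.9.

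mt-Co2, mt-Co3 and mt-Atp6 also varied widely between replicates. mt-Co2 stood at 47.8, 42, 89.4 and 51.5 CPM in the 4 bystander libraries and mt-Co3 at 45.8, 70.7, 34.2 and 65 in the LPS pool. Neither passed edgeR's test in responders against bystanders or in the LPS pool against untreated cells. mt-Atp6 was lower in the LPS pool (log2 -0.57, adjusted p = 0.0275 in edgeR's test), with overlapping libraries. The mitochondrial sum was also restricted to the 5 members without a copy of at least 99% identity. At 95% identity, mt-Nd2 and mt-Nd5 among them do have copies, over 49.1% and 52.3% of their transcripts. The restricted ratio to the nuclear members was 0.835 ± 0.0049 in untreated cells and 0.604 ± 0.00767 in the LPS pool. It was 0.775 ± 0.0126 in bystanders and 0.596 ± 0.0123 in responders. The LPS pool was then 27.7% below untreated cells and responders 23.1% below bystanders, so both differences were larger than with all 10 genes.

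The nuclear members as a group shifted by small amounts. With TMM scaling 64 of 79 were higher and 6 lower in the LPS pool against untreated cells, beside 34.1% and 37.8% of all genes. The members' median log2 change was 0.21, but 4 rose and 49 fell on unscaled library totals. Relative to the median of all genes, the members' median was 0.24 higher under both scalings, and 71 of 79 lay above that median. For responders against bystanders, 32 were higher and 12 lower (2 and 55 with library totals alone), with a median 0.07 above that of all genes and 59 of 79 above it. The share called higher, 32 of 79, stands beside 34.7% of all genes, and the lower share beside 35.3%. Bystanders against untreated cells gave 53 higher and 3 lower with TMM (background 34.1% and 33%) but 0 and 40 with library totals alone. Responders against untreated cells gave 55 and 8 (background 36.5% and 38.5%), and 1 and 69 with library totals alone. These last comparisons share libraries with the first 2. Without the 6 Stmn2 libraries, the first 2 comparisons gave 57 higher and 7 lower, and 27 and 11, of 79.

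Transcript length moved with the direction. Among all genes tested, 52.6% of the 915 with transcripts of up to 1000 bases were higher in the LPS pool against untreated cells (median log2 0.17), compared with 30.4% of the 7601 above 2000 bases (median -0.10). Of the members, 50 fall in the short class, where 44 were higher and 2 lower, with a median of 0.25. In the 1000 to 2000 base class 14 of 19 members were higher and in the longest 4 of 8, with medians of 0.15 and 0.07. For responders against bystanders, 45.9% of all genes in the short class were higher (median 0.09), compared with 32.6% above 2000 bases (median -0.07). There the short members lay below their class, with 18 of 50 higher (median 0.06). The part of length in the results was not tested.

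**Figure D4:**
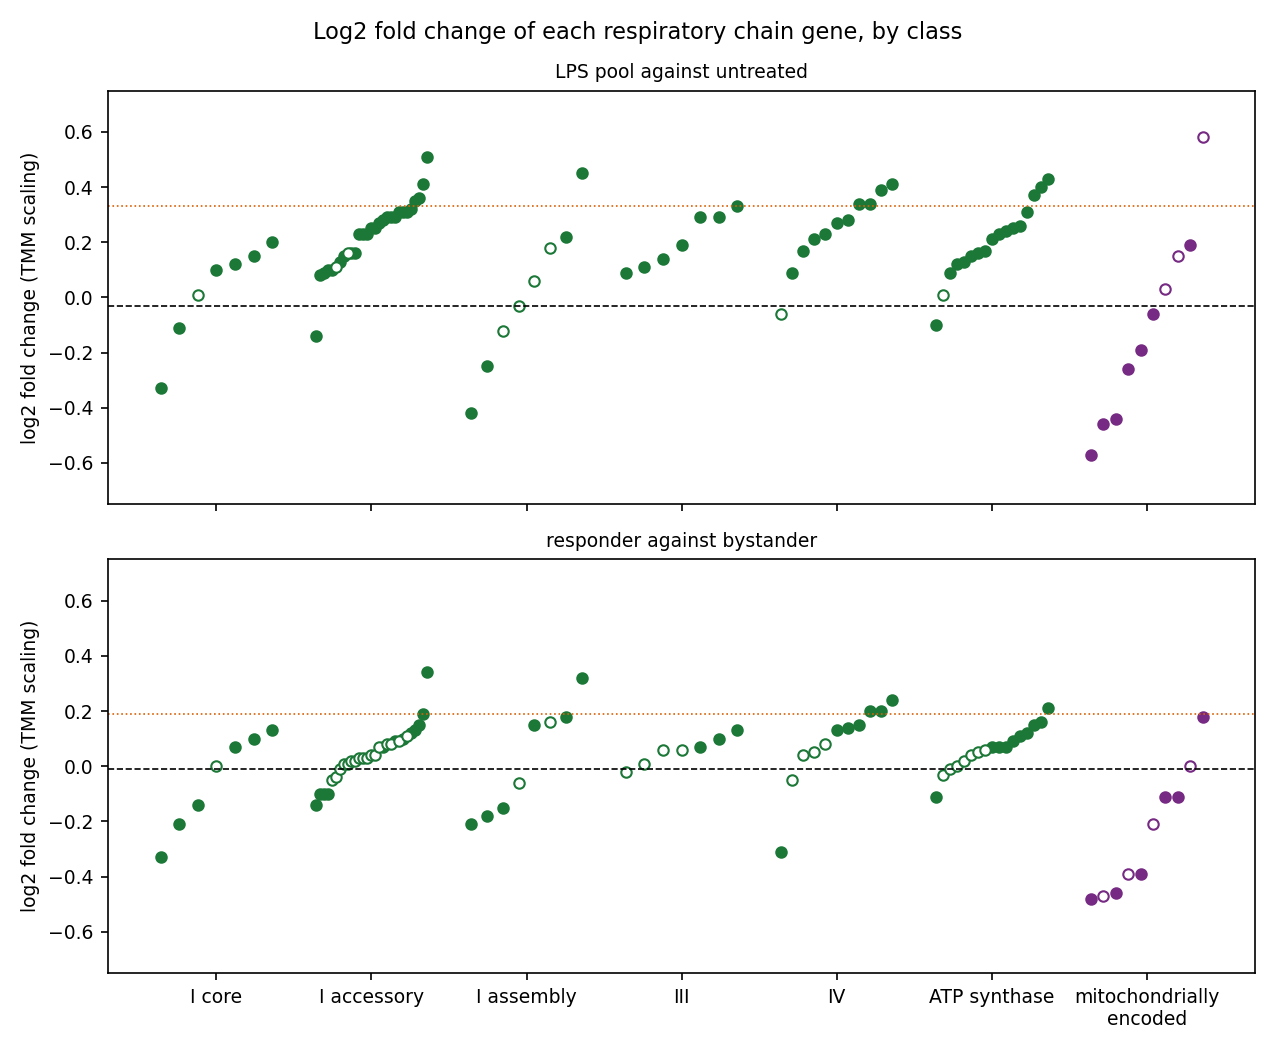
Each point is 1 member's log2 fold change with TMM scaling, filled where edgeR's adjusted p was under 0.05 and open otherwise; nuclear classes are green and mitochondrially encoded genes purple. The dashed line is the median of all genes tested and the dotted orange line is where a value would read 0 with library totals alone, so most green points lie above the dashed line and below the dotted one.

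Complex I has core subunits that carry electrons and pump protons, and accessory subunits around them. Of 29 accessory subunits, 26 were higher and 1 lower in the LPS pool against untreated cells (1 and 15 with library totals alone), with a median 0.28 above that of all genes. Of 7 core subunits, 4 were higher and 2 lower (0 and 7 with library totals alone), with a median 0.13 above it. The difference between the classes was not tested. For responders against bystanders the accessory class had 8 higher and 4 lower, and the core class 3 and 3. Without the 6 Stmn2 libraries the accessory class had 21 higher and 1 lower in the LPS pool against untreated cells. For responders against bystanders it then had 6 and 4, and the core class 0 and 3. TMM counts for classes, copies and motifs, here and below, stand against the shares of all genes tested. Those were 34.1% higher and 37.8% lower in the LPS pool, and 34.7% and 35.3% in responders against bystanders.

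Ndufs1, the largest iron-sulphur subunit of complex I (chromosome 1, 63143592 to 63176822), was the nuclear subunit that fell most among the core ones. Its levels were 109, 101, 107 and 102 CPM in untreated cells, 86.9, 80.1, 84.1 and 83.3 in the LPS pool, 101, 109, 110 and 101 in bystanders and 84, 82.6, 85.4 and 82.8 in responders. With TMM scaling bystanders covered the untreated range (on library totals they lay below it), and every LPS pool and responder library lay below both. In log2 terms the change was -0.33 in the LPS pool against untreated (SE 0.0336, adjusted p = 2.44e-13 in edgeR's test), -0.33 in responders against bystanders (1.11e-13) and 0.00 in bystanders against untreated (0.906). Ndufs8, another iron-sulphur core subunit, was lower in responders than bystanders, with a log2 change of -0.21 (81.5 ± 3.6 against 94.5 ± 1.5 CPM) and in the LPS pool, with -0.11. Ndufv2 was lower in responders against bystanders (-0.14), while its value in the LPS pool was 0.01 (edgeR adjusted p = 0.854; -0.32 with library totals alone). Ndufs3 was higher in the LPS pool by 0.20, a value that became -0.13 with library totals alone, and 75.7% of the Ndufs3 transcript has a copy of at least 95% identity.

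Ndufs4, an accessory subunit needed for a stable NADH-oxidising arm of complex I (chromosome 13, 114287795 to 114388094), went the other way. It stood at 44, 45.9, 43.6 and 41.8 CPM in untreated cells and 62.8, 60.6, 59.6 and 66.5 in the LPS pool. Bystanders had 51, 51.1, 50.8 and 52.2 and responders 67.6, 61.8, 65 and 65.1 CPM. With TMM scaling the order was untreated, bystander, then LPS pool and responder, of which only the last 2 overlapped; on library totals untreated and bystander libraries overlapped too. Its log2 change was 0.51 in the LPS pool against untreated (1.42-fold, adjusted p = 1.21e-17 in edgeR's test) and 0.34 in responders against bystanders (1.27-fold, 7.81e-12), and its direction held with library totals alone. Among other accessory subunits, Ndufb6, Ndufb9 and Ndufb7 were higher in the LPS pool by 0.35, 0.31 and 0.29, of which the last 2 became -0.02 and -0.04 with library totals alone. Ndufv3 was lower in responders than in bystanders (-0.14) and Ndufa1 higher (0.19, which fell to 0.00 with library totals alone).

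Assembly factors, which help put complex I together and are not part of it, showed no common direction. Of 8, 2 were higher and 2 lower in the LPS pool, and 3 were higher and 3 lower in responders against bystanders (0 and 5, and 0 and 4, with library totals alone). Without the 6 Stmn2 libraries the second pair was 1 and 2. Ndufaf4 (chromosome 4, 24898083 to 24905001) stood at 45.3, 47.7, 44.7 and 51.3 CPM in untreated cells, 34.2, 36.3, 35.2 and 35.5 in the LPS pool, 31, 29, 29.4 and 28.2 in bystanders and 34.6, 31.9, 32.4 and 31.3 in responders. All 12 LPS-treated libraries were below all 4 untreated ones, and bystanders were the lowest group with TMM scaling; on library totals they overlapped responders. The log2 change was -0.42 in the LPS pool and -0.69 in bystanders, each against untreated (adjusted p = 6.28e-12 and 2.69e-20, edgeR); responders exceeded bystanders by 0.15, a value of -0.04 with library totals alone. Ndufaf5 was higher in responders than bystanders (0.32) and Ndufaf1 and Ndufaf7 were lower (-0.21 and -0.18). Ndufaf3 was higher in the LPS pool by 0.45, from 11.4 ± 0.645 to 15.6 ± 1.22 CPM.

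Complex III passes electrons from reduced coenzyme Q to cytochrome c. All 7 nuclear members were higher in the LPS pool against untreated cells with TMM scaling, with a median 0.22 above that of all genes, but 0 rose and 4 fell on unscaled library totals. Uqcrq, a small subunit, averaged 105 ± 1.26 CPM in untreated cells and 132 ± 3.38 in the LPS pool (log2 0.33, adjusted p = 7.08e-16 in edgeR's test). The core subunits Uqcrc1 and Uqcrc2 were higher in the LPS pool by 0.19 and 0.11 (-0.14 and -0.22 with library totals alone). In responders against bystanders 3 of 7 were higher, Uqcrq, Uqcrc1 and Uqcrc2, by 0.13, 0.10 and 0.07, and with library totals alone these were -0.06, -0.09 and -0.12.

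Complex IV, cytochrome c oxidase, reduces oxygen. Of its 11 nuclear members, 10 were higher and 0 lower in the LPS pool against untreated cells by edgeR's test, and 6 higher and 1 lower in responders against bystanders (1 and 6, and 1 and 5, with library totals alone). Cox7a2 is not among the 11, since its mean was 0.175 CPM, and why it was so low was not tested. The member that did not rise in the LPS pool was Cox7a2l (-0.06, edgeR adjusted p = 0.0773), and without the 6 Stmn2 libraries the counts there were 9 and 1. Relative to the median of all genes, the class median was 0.30 and 0.14 higher. Cox4i1, the widely expressed form of the regulatory subunit 4 (chromosome 8, 120668225 to 120674209), stood at 385, 376, 377 and 380 CPM in untreated cells and 513, 506, 488 and 516 in the LPS pool. Bystanders had 422, 408, 441 and 428 CPM and responders 512, 509, 505 and 486. With TMM scaling the 4 untreated libraries were lowest and bystanders lay between them and the other 2 groups; on library totals bystanders (417 to 451 CPM) overlapped untreated cells (440 to 451) and their mean was lower. Cox4i1 changed by a log2 of 0.41 in the LPS pool against untreated (adjusted p = 1.18e-25 in edgeR's test) and 0.24 in responders against bystanders (1.74e-15), and the direction of these 2 comparisons held with library totals alone, at 0.09 and 0.05.

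Read against Ndufs1 in the same library, a pair chosen after the values were seen, Cox4i1 had 3.62 ± 0.117 reads per Ndufs1 read in untreated cells, 6.05 ± 0.242 in the LPS pool, 4.05 ± 0.228 in bystanders and 6.01 ± 0.14 in responders. Bystanders (3.75 to 4.25) lay above the untreated range of 3.52 to 3.73 by a narrow gap, and no library of the other 2 groups was under 5.8. Cox6a1, Cox6b1 and Cox6c, smaller subunits at the rim of the complex, were higher in the LPS pool by 0.34, 0.39 and 0.34, and in responders against bystanders by 0.14, 0.13 and 0.20. With library totals alone the Cox6a1 and Cox6b1 values in the second comparison were -0.05 and -0.06. Cox5a was higher by 0.17 and 0.15, turning to -0.16 and -0.04.

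**Figure D5:**
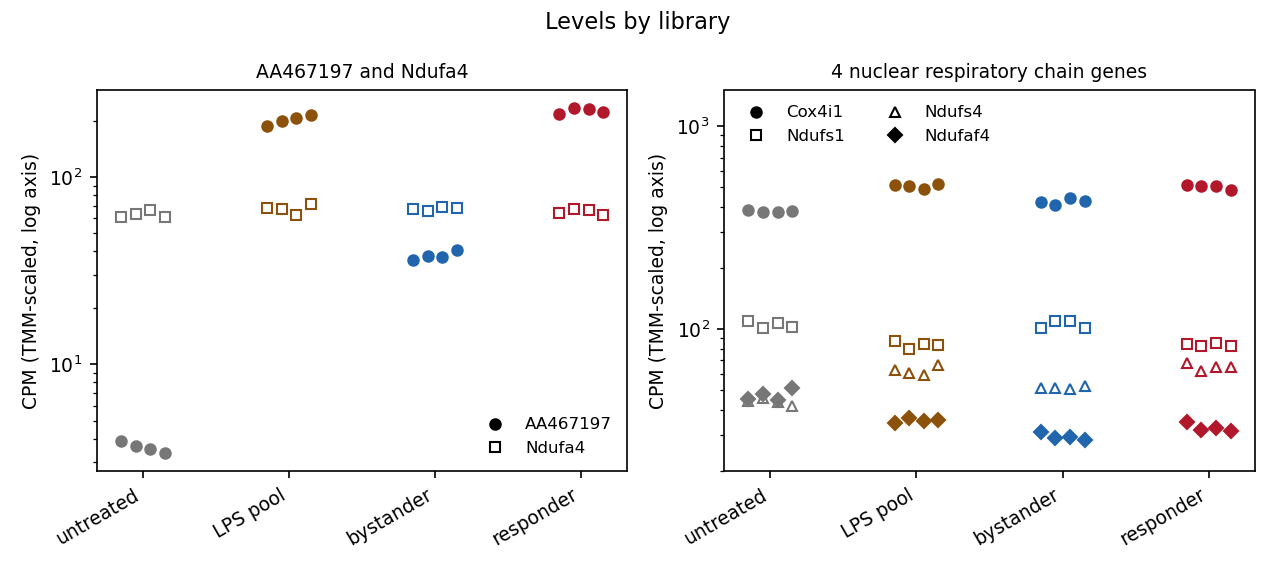
Points are single libraries in TMM-scaled CPM on log axes, for AA467197 and Ndufa4 (left) and for Cox4i1, Ndufs1, Ndufs4 and Ndufaf4 (right). AA467197 ran from 3.34 to 234 CPM across groups while Ndufa4 stayed between 61.3 and 71.5.

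Cox7a2l, a protein of the Cox7a family that links complexes III and IV into supercomplexes (chromosome 17, 83501917 to 83514333), moved against its class between the sorted groups. Its levels were 121, 127, 127 and 129 CPM in bystanders and 94.8, 103, 107 and 102 in responders, compared with 108, 117, 115 and 115 in untreated cells and 104, 105, 112 and 115 in the LPS pool. Every responder library was below every bystander library, and the 2 ungated groups overlapped with TMM scaling (on library totals the LPS pool lay below). The log2 change was -0.31 in responders against bystanders (SE 0.0326, adjusted p = 2.39e-12 in edgeR's test) and 0.15 in bystanders against untreated (4.55e-05). On library totals bystanders (124 to 132 CPM) overlapped untreated cells (127 to 136), and their mean was lower. A copy of 97.953% identity covers 31.2% of its transcript, which leaves its count less certain.

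Of the ATP synthase genes, 15 of 17 members were higher and 1 lower in the LPS pool, and 9 and 1 in responders against bystanders (2 and 12, and 0 and 14, with library totals alone). Atp5b, the catalytic beta subunit and the nuclear member with the most reads, at 1452 CPM, was higher by 0.17 and 0.12, without overlap between libraries. With library totals alone these were -0.16 and -0.07. Atp5c1, the gamma subunit of the central stalk, was the single member lower in both comparisons (-0.10 and -0.11). Atp5md, a small membrane subunit, was higher by 0.37 and 0.21. Atp5g1, 1 of the genes for the proton-carrying c ring, was higher by 0.12 and 0.16 (-0.21 and -0.03 with library totals alone), and 59.5% of its transcript is shared with a copy at 99% identity or more.

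Near-identical copies are also common among nuclear members. A copy of at least 95% identity over 50 bases or more was found for 24 of them, none for 53, and 2 could not be searched. In the LPS pool against untreated cells, 21 of the 24 were higher and 1 lower, and 41 of the 53 were higher and 5 lower, both with TMM scaling. The medians were 0.20 and 0.19.

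The promoters of the nuclear members were searched for 3 motifs tied to respiratory genes: that of the factor NRF1 (the palindrome in capitals in the Ndufaf4 promoter), of ETS factors such as GABP (CCGGAAG) and of YY1 (AAGATGGCG), on both strands. RefSeq promoter windows on GRCm38.p6, 250 bases before to 50 after the start, matched 67 of the 79; the last 3 letters of the ETS string are the first 3 of the YY1 string, so the 2 can overlap. The NRF1 string was in 7 of 67 (10.4%, against 1.07% of 27025 genes), the ETS string in 16 (23.9%, against 9.93%) and the YY1 string in 8 (11.9%, against 1.64%). These are matches of letters, not sites of binding. In the LPS pool against untreated cells, with TMM scaling, 6 of the 7 with the NRF1 string were higher and 1 lower, and 49 of the 60 without it were higher and 3 lower; the medians were 0.22 and 0.21. For the ETS string 13 of 16 were higher and 1 lower, and 42 and 3 of the 51 without it, with medians of 0.27 and 0.17. For the YY1 string 7 of 8 were higher and 0 lower, and 48 and 4 of the 59 without it, with medians of 0.24 and 0.19. These differences were not tested.

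Stretches of 120 bases just before the start of 4 genes are printed, 5′ to 3′ on the gene's strand, with motif letters in capitals. Outside these stretches, the full window of Ndufs4 holds the YY1 string and that of Cox6a1 the NRF1 string. Ndufaf4 (chr4:24897963-24898082, plus strand), the 1 of the 7 that was lower, holds the NRF1 string, Cox6a1 (chr5:115348959-115349078, minus strand) and Cox6b1 (chr7:30626115-30626234, minus strand) the reverse complement of the ETS string, and Ndufs4 (chr13:114388095-114388214, minus strand) none of the 3 in this stretch:
Ndufaf4: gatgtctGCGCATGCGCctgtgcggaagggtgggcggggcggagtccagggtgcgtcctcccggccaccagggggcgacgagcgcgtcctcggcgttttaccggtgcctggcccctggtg
Cox6a1: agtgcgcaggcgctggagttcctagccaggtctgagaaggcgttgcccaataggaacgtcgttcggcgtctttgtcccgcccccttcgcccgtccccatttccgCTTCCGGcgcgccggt
Cox6b1: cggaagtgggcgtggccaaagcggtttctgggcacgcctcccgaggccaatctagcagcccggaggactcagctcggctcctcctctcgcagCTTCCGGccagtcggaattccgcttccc
Ndufs4: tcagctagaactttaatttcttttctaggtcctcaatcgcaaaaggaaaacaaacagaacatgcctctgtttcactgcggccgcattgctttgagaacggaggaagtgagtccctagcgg

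A paralogue outside the name rule had the widest range of all genes in the lists related to the chain. AA467197, also named Nmes1, is a relative of Ndufa4, a subunit of complex IV, and is known to take its place in activated macrophages (chromosome 2, 122637887 to 122641076). It stood at 3.89, 3.64, 3.55 and 3.34 CPM in untreated cells and 187, 199, 207 and 213 in the LPS pool. Bystanders had 35.9, 37.8, 37.5 and 40.8 CPM and responders 216, 234, 231 and 221. The order from low to high was untreated, bystander, LPS pool, responder, without overlap with TMM scaling; on library totals the last 2 overlapped. The LPS pool was 55.8-fold above untreated cells (adjusted p = 1.13e-49 in edgeR's test), bystanders 10.6-fold above untreated cells, and responders 5.91-fold above bystanders (9.21e-43).

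Ndufa4 itself was near level with TMM scaling. It had 61.3, 63.3, 67 and 61.3 CPM in untreated cells, 68.4, 67.6, 62.4 and 71.5 in the LPS pool, 67.4, 65.7, 68.9 and 68 in bystanders and 64.3, 67.7, 66.7 and 62.4 in responders, with overlap in both main comparisons. Responders against bystanders gave a log2 of -0.05 (adjusted p = 0.214, edgeR) and the LPS pool 0.09 (0.023, and -0.23 with library totals alone). On library totals neither comparison overlapped. The LPS pool had 58.4 to 66.5 CPM against 71.7 to 78.3 in untreated cells, and responders 55.9 to 60.5 against 67 to 70.5 in bystanders. Reads of AA467197 per read of Ndufa4 were 0.0571 ± 0.0047 in untreated cells, 2.99 ± 0.243 in the LPS pool, 0.563 ± 0.0303 in bystanders and 3.46 ± 0.0729 in responders. So AA467197 reads outnumbered Ndufa4 reads in all LPS pool and responder libraries and in no bystander or untreated library. The microRNA gene Mir147 lies inside AA467197 (chromosome 2, 122640803 to 122640881) and is listed at 0 reads in all 16 libraries. Since it lies wholly inside another counted gene, this count does not tell whether the microRNA was present. The promoter stretch of AA467197 (chr2:122637767-122637886, plus strand) is shown beside that of Ndufa4 (chr6:11907451-11907570, minus strand), and neither holds the 3 motifs in these 120 bases:
AA467197: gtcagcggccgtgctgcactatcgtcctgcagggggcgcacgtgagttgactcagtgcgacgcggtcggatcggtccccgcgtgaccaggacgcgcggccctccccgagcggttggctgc
Ndufa4: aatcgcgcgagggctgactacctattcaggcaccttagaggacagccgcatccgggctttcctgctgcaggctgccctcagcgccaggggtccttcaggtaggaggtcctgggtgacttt

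Other tissue-specific forms of subunits stayed low. Cox6a2, the muscle form of subunit 6a, was at 2.35 to 2.85 CPM in group means, and Cox7a1, another muscle form, was higher in bystanders than in untreated cells with overlapping libraries (0.37, adjusted p = 0.00834, edgeR). Of the 17 paralogues listed, 10 were tested.

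Genes that serve the chain without being members were described from lists set beside the members. Their counts are with TMM scaling and stand against 34.1% of all genes higher and 37.8% lower in the LPS pool, and 34.7% and 35.3% in responders against bystanders. On library totals, where 63.8% and 53.2% of all genes were called lower, none of these lists had more higher than lower calls in either comparison. Of 7 tested genes of complex II and its assembly, 1 was higher and 4 lower in responders against bystanders, and 1 and 2 in the LPS pool. Sdha, its catalytic subunit, was at 350 and 308 CPM in bystanders and responders (log2 -0.19). Sdhaf1, an assembly factor, was lower in bystanders than in untreated cells (log2 -1.16). Of 16 genes of cytochrome c and coenzyme Q synthesis, 4 were higher and 5 lower in responders against bystanders and 5 and 3 in the LPS pool.

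Cycs, cytochrome c itself, carries electrons from complex III to complex IV. It stood at 278, 283, 288 and 276 CPM in untreated cells, 422, 411, 395 and 424 in the LPS pool, 297, 290, 287 and 290 in bystanders and 443, 444, 434 and 436 in responders. The LPS pool and responders lay clear of the others, with log2 changes of 0.55 against untreated cells and 0.60 against bystanders (adjusted p = 3.38e-32 and 6.04e-34, edgeR). Bystanders against untreated cells gave 0.05 (edgeR adjusted p = 0.0526). Coq10b, a coenzyme Q binding protein, was higher by 1.04 and 0.63 in the same 2 comparisons.

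Genes for the upkeep and transcription of mitochondrial DNA went in both directions: of 15 tested, 4 were higher and 6 lower in the LPS pool, 7 and 5 in responders against bystanders, and 3 and 9 in bystanders against untreated cells. Tfb2m, the factor that opens mitochondrial promoters, stood at 26, 29.1, 26.9 and 26.4 CPM in untreated cells, 10.6, 11.8, 12 and 11.6 in the LPS pool, 21.2, 22.2, 20.5 and 22.7 in bystanders and 9.7, 11.2, 11.8 and 10.2 in responders. All LPS pool and responder libraries were under the lowest bystander one. Tfb2m changed by a log2 of -1.24 in the LPS pool and -1.01 in responders against bystanders (adjusted p = 1.17e-24 and 2.58e-20, edgeR). Polrmt, the mitochondrial RNA polymerase, was lower, with log2 changes of -0.65 and -0.38. Tfam, which packs mitochondrial DNA, was lower in the LPS pool (log2 -0.29), while responders against bystanders gave -0.04 (adjusted p = 0.457, edgeR).

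Of 20 genes for processing and decay of mitochondrial RNA, 4 were higher and 11 lower in the LPS pool and 10 and 6 in responders against bystanders. Fastkd1 was at 7.57 ± 0.433 CPM in bystanders and 17.5 ± 0.893 in responders (log2 1.20), and at 17.8 ± 1.38 in untreated cells. Fastkd3 differed in the same direction, by 0.74. In a ratio chosen after the values were seen, reads of the 2 mitochondrial ribosomal RNAs per read of the 10 members were 0.152 ± 0.00289 in untreated cells, 0.232 ± 0.00913 in the LPS pool, 0.199 ± 0.0019 in bystanders and 0.225 ± 0.00277 in responders, with all 3 LPS-treated groups above the untreated range.

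Among 10 tested nuclear regulators of respiratory genes, 4 were higher and 5 lower in the LPS pool, and 6 and 3 in responders against bystanders. Ppargc1b, a coactivator of respiratory genes, stood at 9.55, 9.4, 9.15 and 9.05 CPM in untreated cells, 6.81, 6.78, 7.26 and 6.54 in the LPS pool, 2.46, 2.73, 2.79 and 2.34 in bystanders and 6.47, 6.86, 7.61 and 6.62 in responders. Bystanders were lowest, without overlap, and responders exceeded them 2.67-fold (adjusted p = 4.73e-17, edgeR). Esrra, its nuclear receptor partner, was likewise lowest in bystanders (51.5 ± 1.36 CPM, against 87.9 ± 0.722 in responders and 74.5 ± 0.336 in untreated cells). On library totals Esrra was again lowest in bystanders, but responders (77.8 to 80.1 CPM) lay below untreated cells (86.8 to 87.7). Both named GABP subunits were lower in responders than bystanders, with log2 changes of -0.28 for Gabpa and -1.02 for Gabpb2. Nrf1 was higher in responders than bystanders by 0.22 and gave -0.07 in the LPS pool (adjusted p = 0.254, edgeR). Hif1a, the oxygen-regulated factor, was higher by 1.11 and 0.86.

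Of 7 tested genes that feed the chain or uncouple it, 3 were higher and 3 lower in each of the same 2 comparisons. Gpd2, which passes electrons from glycerol phosphate to coenzyme Q, was higher by 0.47 and 0.52, and Ucp2, a carrier of the inner membrane, was lower (-0.14 and -0.30). Of 18 genes of the mitochondrial membrane and import, 6 were higher and 7 lower in the LPS pool, and 11 and 6 in responders against bystanders. Phb and Phb2, the 2 prohibitins, were higher in responders than bystanders by 0.25 and 0.28. Of 38 other assembly factors, 16 were higher and 15 lower in the LPS pool, and 10 and 13 in responders against bystanders. Ttc19, needed for complex III, was higher by 0.97 and 1.37, and Coa5, of complex IV, by 0.70 and 0.48.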

How the data were processed

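RNA of 16 libraries (4 groups of 4) was sequenced, and the values the authors deposited are whole-number gene counts without normalisation. The tools, per the submitters' processing notes, were HISAT2 2.2.2, featureCounts 2.1.1, fastp 1.1.0 and cutadapt 3.7, and the build GRCm38 (mm10). Not given in the sources used here are the annotation, the strand setting and the handling of reads that align to several places. The table's 3 empty columns were left out and 0 columns belonged to other samples. Symbols were matched for 25275 of 27179 Entrez identifiers; the 1904 others held 0.399% of counts.

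Counts were tested with edgeR 4.0.16 (R 4.3.3; filterByExpr, TMM, robust quasi-likelihood fit over all 16 libraries, 1 mean per group) and adjusted by Benjamini-Hochberg over 12589 genes, with calls at adjusted p under 0.05. Fold changes are edgeR's fitted values. Read ratios were tested with scipy 1.17.1 by two-sided exact permutation, Benjamini-Hochberg adjusted over 4 comparisons, or over 16 by complex. The median biological coefficient of variation was 0.0357, and totals ran from 15287344 to 25193162 counts. Replicates differed beyond sampling noise (chi-square per degree of freedom 1.61 to 3.13 over 24 pairs), so none was merged. On simulated counts for responders against bystanders (12589 genes), 75% of 100 genes changed by a log2 of 0.25 and 100% of 100 genes changed by 1 were recovered, and 4.89% of calls were false. Only these genes were changed, as many up as down, all among well-counted genes. In the data far more genes were called, so the simulation cannot show how scaling affects the calls. Copies were searched with blastn 2.17.0 in GENCODE transcripts of GRCm38, and promoters came from RefSeq.

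Members and gene lists were chosen with earlier results of these data known. Named genes were all mitochondrial members, the 4 smallest p for responders against bystanders and 3 for the LPS pool in each nuclear class, every tested paralogue, 2 genes of each other list, and Nrf1, Gabpa, Ppargc1b, Esrra and Tfam; 1 gene under this rule is not reported here. Alternatives were library totals, DESeq2 1.42.0, median-ratio factors, no filter, member minima of 1 and 20 CPM, fits of 2 groups, a replicate block and single libraries left out.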

Additional observations from a re-analysis of the deposited data

Results flagged for a closer look

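A library was flagged where, within its group of 4, it lay far from the other 3 by Dixon's criterion (the gap to the nearest as a share of the range). This happened in 13 of 300 groups of libraries, and chance alone flags about 5% of groups. Among mitochondrial genes, mt-Atp6 was 34.9 CPM in LPS pool 3 (others 25.7 to 26.8), and mt-Nd6 was 497 CPM in LPS pool 4 (others 459 to 465). The complex V read ratio, which rests on mt-Atp6, was 0.00734 in LPS pool 3 (others 0.00527 to 0.00545). Of complex I, Ndufs8 was 98.7 CPM in untreated 4 (others 93.2 to 93.6), Ndufs4 52.2 CPM in bystander 4 (others 50.8 to 51.1), Ndufv3 56 CPM in untreated 3 (others 58.7 to 59.1) and Ndufaf3 17.4 CPM in LPS pool 1 (others 14.8 to 15.1). Uqcrq was 128 CPM in responder 1 (others 125 to 126) and Uqcrb 98.1 CPM in bystander 3 (others 103 to 104). Cox6b1 was 190 CPM in responder 2 (others 180 to 181) and Cox7a1 5.35 CPM in untreated 3 (others 3.71 to 3.99). Atp5md was 145 CPM in LPS pool 4 (others 132 to 134) and 104 CPM in bystander 3 (others 115 to 117).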

How the results depend on the processing

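Scaling decided the most. On unscaled library totals, the higher and lower calls of nuclear members were 2 and 55 for responders against bystanders, 4 and 49 for the LPS pool against untreated cells, 0 and 40 for bystanders against untreated and 1 and 69 for responders against untreated. Mitochondrial members gave 0 and 8, 0 and 8, 1 and 6, and 0 and 8. Of all genes, 53.2%, 63.8%, 52.2% and 65.4% were then called lower in the same 4 comparisons. Of 140 values for named genes, 47 changed sign on unscaled totals, 12 lost and 11 gained a call. Among those for the sorted groups, the log2 values after the change of sign were mt-Nd4 -0.19, mt-Nd6 -0.01, Ndufs3 -0.06, Ndufa1 0.00, Ndufb7 -0.07, Ndufb9 -0.16, Ndufb6 -0.11, Ndufaf4 -0.04, Ndufaf3 -0.01, Uqcrq -0.06, Uqcrc1 -0.09, Uqcrc2 -0.12, Uqcrb -0.13, Uqcr10 -0.13, Cox5a -0.04, Cox6a1 -0.05, Cox6b1 -0.06, Atp5b -0.07, Atp5g1 -0.03, Atp5j2 -0.10 and Cox8a -0.14. Among those for the LPS pool against untreated they were mt-Co1 -0.29, mt-Nd6 -0.14, Ndufv2 -0.32, Ndufs3 -0.13, Ndufv3 -0.20, Ndufb7 -0.04, Ndufb9 -0.02, Ndufaf5 -0.11, Ndufaf7 -0.27, Uqcrc1 -0.14, Uqcrc2 -0.22, Uqcrb -0.18, Uqcrh -0.04, Uqcr10 -0.04, Cox5a -0.16, Atp5b -0.16, Atp5g1 -0.21, Atp5j2 -0.02, Fastkd3 -0.23, Phb -0.25, Ndufa4 -0.23, Cox8a -0.10, Ndufb11 -0.24 and Esrra -0.21.

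DESeq2, median-ratio factors, no filter on low counts, a fit of the 2 compared groups, the replicate block and leaving out single libraries changed the sign of 0 of the 140 values. The mitochondrial members higher in the LPS pool numbered 3 with DESeq2, 3 with median-ratio factors, 2 in a fit of the 2 groups and 1 to 3 with a library left out; for responders against untreated they numbered 1 in a fit of the 2 groups and 1 to 2 with a library left out. Leaving out libraries gave 30 to 39 nuclear members higher for responders against bystanders and 58 to 65 for the LPS pool. The read ratio then stayed within -0.26 to -0.24 and -0.30 to -0.28 in log2, and within 0.02 to 0.04 for bystanders against untreated and -0.23 to -0.20 for responders against untreated. Without mt-Co1 the log2 ratio was -0.35, -0.44, -0.11 and -0.46 for responders against bystanders, LPS pool against untreated, bystanders against untreated and responders against untreated. Weighing each gene alike gave -0.05 for bystanders and -0.31 for responders, each against untreated.

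Same-numbered libraries did not deviate together (correlations -0.0642 to 0.0935). This check cannot tell whether the numbers pair the samples, since paired cultures that differ little would also give weak correlations. With the replicate block, nuclear members were 33 higher and 12 lower for responders against bystanders and 63 and 7 for the LPS pool, and mitochondrial members 1 and 5, and 1 and 6. A planned fit without libraries holding 10 CPM or more of neural and glial markers was not possible, since all 16 reached that level through Mbp and Map2. In its place, chosen after seeing the data, the 6 libraries holding Stmn2 were left out: mitochondrial members higher in the LPS pool numbered 3, the log2 ratio for bystanders against untreated was 0.06, and that of complex V 0.29. Also chosen after seeing the data, the 5 mitochondrial genes with no near-identical copy gave -0.38, -0.47, -0.11 and -0.49 in the order used above. The low reads of mt-Atp6 limit what can be said of complex V.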
